A study of Mus musculus with 18 samples.

Results

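The genes described here are 55 genes of mitosis and chromosome segregation, chosen by name from what their proteins do. The choice was made with earlier results of these data known, so the counts below are no independent finding. Each was looked up in the authors' deposited table of pairwise Cuffdiff comparisons in RAW264.7 cells, a mouse macrophage-like line that divides in culture. Of the 55 genes, 54 had at least 1 row, among 5455 named genes listed between the groups used here, and Plk4, the kinase that starts centriole duplication, had none. The study asked what induced CITED1, a transcriptional co-regulator, does to macrophages with and without interferon-gamma, and it covers 18 samples in 6 groups of 3. The 2 parental groups (RAW) were untreated RAW264.7 cells and RAW264.7 cells with 100 ng/mL doxycycline. A lentiviral pINDUCER20 construct for doxycycline-inducible mouse CITED1 had been brought into the RAW264.7 cells of the remaining 4 groups (p2080). These had no treatment, the same dose of doxycycline, 200 U/mL interferon-gamma, or doxycycline and interferon-gamma together at those doses. The labels used here give no treatment time, do not say whether the construct cells were a clone or a pool, and do not state that the 3 samples per group were separate cultures. No parental group used here received interferon-gamma, so an effect of interferon-gamma and its dependence on the construct cannot be told apart.

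Mitosis begins when cyclin A and cyclin B bind and activate CDK1, whose inhibitory phosphates are taken off by CDC25 phosphatases. Kinetochores built on the centromere then capture microtubules, kinesin motors shape the spindle, and the spindle checkpoint holds back the anaphase-promoting complex until every chromosome is attached. Activation of that complex by CDC20 destroys securin and cyclin B, separase opens cohesin, and the chromosomal passenger complex and the RhoA module carry the cell into cytokinesis. Transcripts of these genes are high in dividing cells late in the cycle and low in resting cells. This timing runs largely through the DREAM and MYB-MuvB complexes and FOXM1, which act at promoters with a cell cycle homology region, usually written TTTGAA, and often with CCAAT boxes bound by NF-Y.

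RefSeq promoter windows of the GRCm38.p6 assembly, from 250 bases before to 50 bases after a gene's start, were available for 48 of the 55 genes, in 52 windows. The windows are printed for the 5 genes with a window whose leading entry, the transcript with the highest level, fell most with interferon-gamma without doxycycline in the authors' deposited table. They show where the elements typical of mitosis genes lie, and that 1 of these promoters has none in the stretch printed. Each sequence runs 5′ to 3′ on the gene's strand from 170 bases before to 30 bases after the start, 200 bases in all. Capitals mark the motifs searched. The cell cycle homology region was searched as TTTGAA and as its variant with A in place of G, TTTAAA. The CCAAT box was searched as these letters. Matches on the opposite strand were taken too and appear here as their reverse complement, and no 2 motifs overlap in these sequences. The order is by deposited fold, and the regions are chr8:22185790-22185989 on the minus strand for Ckap2, chr4:118437314-118437513 on the minus strand for Cdc20, chr1:189688057-189688256 on the minus strand for Cenpf, chr7:80294281-80294480 on the plus strand for Prc1 and chr1:169531435-169531634 on the minus strand for Nuf2.
Ckap2: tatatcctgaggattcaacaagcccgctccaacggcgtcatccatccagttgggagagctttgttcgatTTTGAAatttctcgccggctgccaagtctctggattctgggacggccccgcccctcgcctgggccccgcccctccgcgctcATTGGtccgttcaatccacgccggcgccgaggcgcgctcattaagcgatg
Cdc20: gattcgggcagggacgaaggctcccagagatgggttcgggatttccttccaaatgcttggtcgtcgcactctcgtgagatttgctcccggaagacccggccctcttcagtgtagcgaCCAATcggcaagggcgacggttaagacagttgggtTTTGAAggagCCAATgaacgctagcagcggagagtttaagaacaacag
Cenpf: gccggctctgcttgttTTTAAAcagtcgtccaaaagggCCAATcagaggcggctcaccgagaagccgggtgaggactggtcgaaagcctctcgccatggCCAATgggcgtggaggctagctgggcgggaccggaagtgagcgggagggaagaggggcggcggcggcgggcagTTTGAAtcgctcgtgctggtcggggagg
Prc1: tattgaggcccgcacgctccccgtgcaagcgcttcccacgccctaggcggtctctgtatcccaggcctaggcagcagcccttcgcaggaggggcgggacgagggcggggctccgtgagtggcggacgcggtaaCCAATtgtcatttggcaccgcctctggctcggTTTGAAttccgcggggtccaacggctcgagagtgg
Nuf2: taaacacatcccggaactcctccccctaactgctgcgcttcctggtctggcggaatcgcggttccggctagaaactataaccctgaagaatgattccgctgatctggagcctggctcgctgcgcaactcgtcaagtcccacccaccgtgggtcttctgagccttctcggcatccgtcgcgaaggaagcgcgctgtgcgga

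In these stretches Ckap2 and Prc1 have 1 TTTGAA and 1 CCAAT each. The Cdc20 stretch has 1 TTTGAA and 2 CCAAT, and that of Cenpf has 1 TTTGAA, 1 TTTAAA and 2 CCAAT. Nuf2 has none of these letters in the stretch shown, which says nothing of the factors that act there. Over the whole windows, TTTGAA or TTTAAA was found in 41 of the 52 windows of these genes (78.8%), against 27.6% of all 32851 windows in the RefSeq table. CCAAT was found in 73.1% of their windows and in 37.4% of all windows, and both elements together in 63.5% and 10.7%. Windows of the other mitosis genes described further on held TTTGAA or TTTAAA in 43.5% of 92 windows, CCAAT in 63.0% and both in 31.5%, between the shares of the 48 genes and of all windows. Windows of S-phase genes, which act earlier in the cycle, held TTTGAA or TTTAAA in 27.1% of 48 windows, close to the share of all windows, and CCAAT in 54.2%. A match is a description of letters and not a mapped binding site. For the fall with interferon-gamma without doxycycline, the median log2 ratio was -1.63 for 38 genes with TTTGAA or TTTAAA and -1.52 for 7 genes without, over ranges that overlapped (-2.51 to -0.985 and -2.16 to -1.28). For CCAAT the order was the other way, with -1.59 for 32 genes with it and -1.66 for 13 genes without.

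The deposited table gives 1 fold change, 1 total FPKM (a level that corrects the fragments of a transcript for its length and for library size) and 1 q-value for each pair of groups, and no values per sample. Hence no value below carries an SD or n, the depth of the libraries is unknown, and each call is the authors' own. Rows reach down to a 2-fold change and up to a q of 0.0499, so a gene without a row is not shown to be unchanged. A group's level was rebuilt from the fold and the total, read as the sum of both groups. The 362 levels of these genes that could be rebuilt more than once spanned at most 0.329% of their median. Rows belong to entries, most of them single transcripts. The 54 genes had 77 entries, of which 72 are protein-coding in GENCODE M21, and the values below are those of a gene's leading entry, the one with the highest level in any group. As a check of the inducer, rebuilt Cited1 was 0.703 FPKM in untreated construct cells, 168 with doxycycline, 11.5 with interferon-gamma and 86.7 with both, so the cells not given doxycycline had some Cited1 once stimulated. Of 10 macrophage markers 6 were listed (Adgre1, Cd68, Fcgr1, Itgam, Ptprc and Spi1), and of 6 fibroblast and epithelial markers none was. With interferon-gamma and no doxycycline the authors' deposited table calls 0 macrophage markers lower and 2 higher, Fcgr1 and Ptprc. Of all listed genes 24.5% were called lower and 25.7% higher. With doxycycline the markers had 3 lower (Adgre1, Cd68 and Itgam) and 3 higher (Fcgr1, Ptprc and Spi1), against 34.0% and 33.7% of all listed genes. Adgre1 was also lower in untreated construct cells (12.2 FPKM) than in untreated parental cells (28.6 FPKM). The part of these markers in the results below was not tested. The filtered table cannot show whether an unlisted marker was absent.

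Interferon-gamma was followed by lower levels of nearly the whole set. Without doxycycline the authors' deposited table calls 50 of the 55 genes lower and 0 higher, while 24.5% of all listed genes were called lower and 25.7% higher. With doxycycline in both groups it calls 51 lower and 0 higher, against 34.0% and 33.7% of all listed genes. Over the leading entries the median log2 ratio was -1.62 without doxycycline (51 genes with both levels, from -2.51 to -0.985), a 3.08-fold lower level, and -1.73 with it (51 genes, from -2.58 to -0.999), a 3.32-fold lower level. For all listed genes the medians were -0.0049 and -0.33. A gene has levels here only if it passed the 2-fold limit in some pair of groups, so these medians describe listed genes and not all genes measured. Summed over the 59 entries of 48 genes with a level in all 6 groups, the rebuilt level was 1892 FPKM in untreated parental cells, 1927 in parental cells with doxycycline, 1899 in untreated construct cells, 1854 in construct cells with doxycycline, 615.6 with interferon-gamma and 562.5 with both. Stimulated cells thus had 32.4% of the summed level without doxycycline and 30.3% with it. In RNA from whole cultures, fewer dividing cells and less of these RNAs per dividing cell cannot be told apart.

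**Figure D1:**
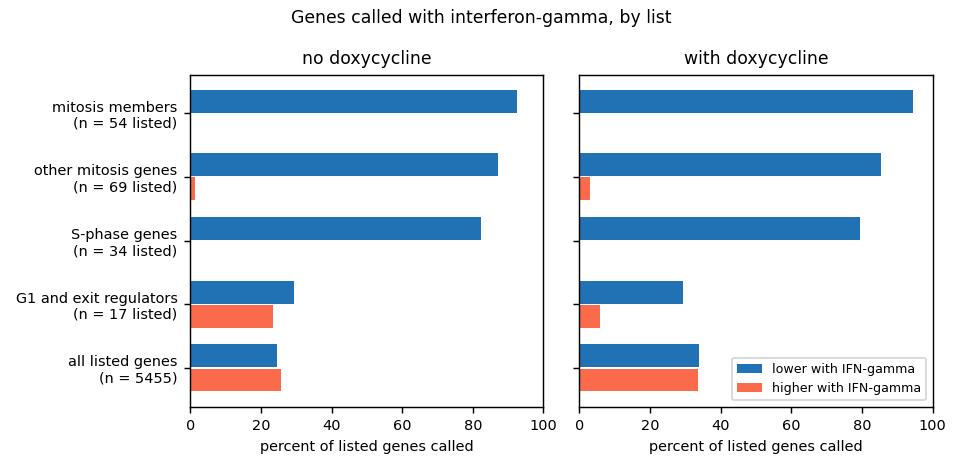
Percent of the listed genes of each list that the authors' deposited table calls lower (blue) or higher (orange) with interferon-gamma in construct cells, without doxycycline (left) and with doxycycline in both groups (right). Of the 54 listed mitosis genes 92.6% and 94.4% were called lower and none higher, while all 5455 listed genes split nearly evenly.

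All 517 rows of these genes set an unstimulated group against a stimulated one, and all 517 give the lower level to the stimulated group. Of these rows 425 (82.2%) carry the smallest q in the authors' deposited table, 0.000387, a floor shared by 71.8% of all rows used. Each unstimulated group can be paired with each stimulated group in 8 ways, which share groups and are no independent tests. In the authors' deposited table, 47 genes were lower in all 8 pairs, 87.0% of the 54 listed, against 844 of all listed genes (15.5%). Untreated parental cells had 50 of these genes higher, by the authors' deposited table, than cells with interferon-gamma and 50 higher than cells with both, in pairs where 26.5% and 35.3% of all listed genes were called lower after stimulation and 26.4% and 34.0% higher. For parental cells with doxycycline the authors' deposited table gives 50 and 51 such genes, beside 26.6% and 34.3% of listed genes called lower and 26.1% and 33.0% called higher. For construct cells that differ in both treatments it gives 51 (34.2% of listed genes lower, 33.8% higher) and 49 (24.9% lower, 25.7% higher). The other 7 listed genes were lower in 1 to 7 pairs: Cenpk in 1, Pttg1 in 2, Bub1, Tpx2, Cdca5 and Smc4 in 4 each, and Kif23 in 7. For every leading entry the lowest rebuilt level in an unstimulated group was above the highest in a stimulated group, by a median of 2.82-fold, from 1.77-fold for Cenpa to 5.15-fold for Ckap2. For all listed genes the median of this ratio was 0.563. A level exists only where a row passed the 2-fold limit. For these genes that filter largely fixes the lack of overlap, which is no separate support for the fall. Among the 4 unstimulated groups the highest level exceeded the lowest by a median of 1.11-fold (51 genes, 1.02 to 1.24), and for all listed genes by 1.22-fold. The listed genes include some that are listed for a change between unstimulated groups.

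**Figure D2:**
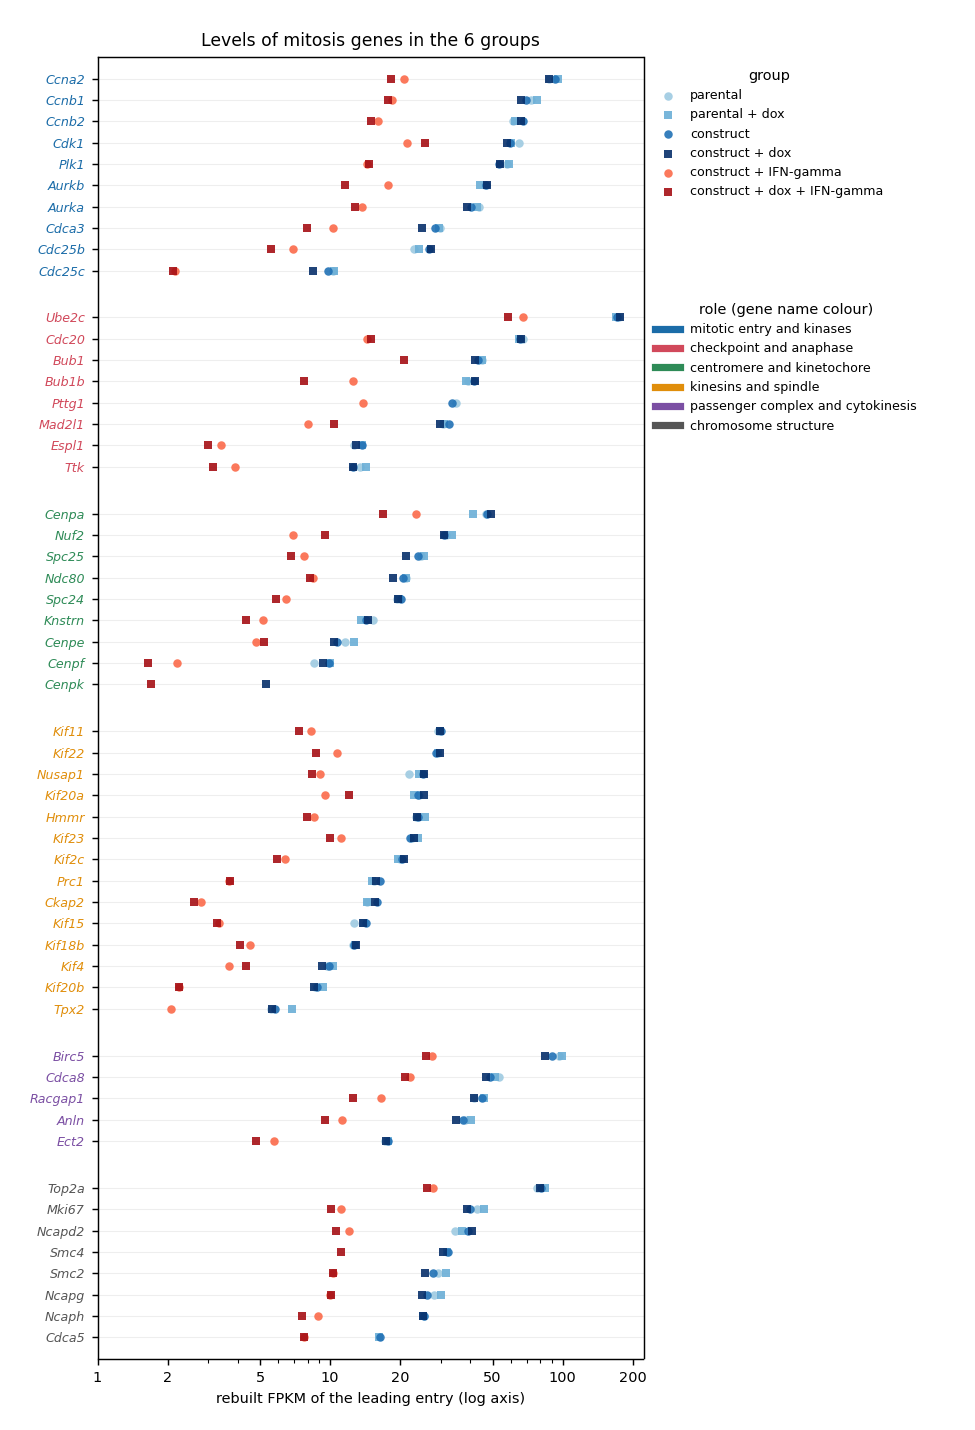
Rebuilt FPKM (log axis) of the leading entry of the 54 listed genes in the 6 groups, sorted by role and level; blue symbols are unstimulated groups, orange and red symbols the groups given interferon-gamma, and squares the groups given doxycycline. The blue symbols of a gene lie close together and every orange or red symbol lies to their left, from Cenpa (41.3 against 23.3 FPKM) to Ckap2 (14.3 against 2.78 FPKM). A symbol exists only where a row passed the 2-fold limit, which largely fixes this gap.

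Genes of mitotic entry and the mitotic kinases were lower for 10 of 11 members in both comparisons, with medians of -1.90 and -1.95 on the log2 scale. Ccna2, cyclin A2, had rebuilt levels of 87.2, 95.1, 92.8 and 87.1 FPKM in parental cells without and with doxycycline and construct cells without and with it, and of 20.8 FPKM with interferon-gamma and 18.3 FPKM with both. Ccnb1, cyclin B1, had 72.8, 77.4, 69.8 and 66.4 FPKM in the same 4 unstimulated groups and 18.5 and 17.7 FPKM in the stimulated ones, falls of 3.77-fold and 3.74-fold by the authors' deposited table. Cdk1, the kinase that both cyclins activate, had 65.0, 60.1, 59.2 and 57.4 FPKM and then 21.4 and 25.7 FPKM. Of Ccna2, Ccnb1 and Cdk1, Cdk1 kept the largest share of its level with both treatments. By rebuilt levels with doxycycline in both groups, the 4 Cdk1 entries were 2.24-fold to 3.59-fold lower. The leading entry fell least, so the size of this difference depends on the entry. Cdc25c, a phosphatase that activates CDK1, went from 9.80 to 2.16 FPKM without doxycycline, 4.54-fold lower in the authors' deposited table. Cdc25b, which acts earlier on the same phosphates, went from 26.5 to 6.92 FPKM and, with doxycycline, from 27.1 to 5.56 FPKM. Plk1, Polo-like kinase of mitotic entry and spindle assembly, went from 53.1 to 14.4 FPKM and from 53.9 to 14.7 FPKM, nearly the same fall in both settings. Aurka, the centrosomal Aurora kinase, had 40.5 and 13.7 FPKM without doxycycline, and Aurkb, the Aurora kinase of the passenger complex, 46.6 and 17.7 FPKM. Cdca3, needed to trigger mitotic entry, was lower 2.76-fold and 3.12-fold by the authors' deposited table.

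Of the 8 checkpoint and anaphase genes 7 were lower in each comparison, with medians of -1.73 and -2.01. Cdc20, the activator of the anaphase-promoting complex and target of the checkpoint, had rebuilt levels of 67.4, 65.0, 65.4 and 66.4 FPKM in the unstimulated groups, in the order above, and of 14.4 and 14.95 FPKM in the stimulated ones. Ube2c, the ubiquitin-conjugating enzyme of that complex, was the most abundant of all 54 genes at 174, 169, 171 and 176 FPKM, and had 67.5 and 58.0 FPKM after stimulation. Mad2l1 encodes the checkpoint protein MAD2 and had 30.5, 31.0, 32.5 and 29.6 FPKM, then 8.02 and 10.4 FPKM. Cdc20 fell more than Ube2c, 4.55-fold against 2.54-fold in the authors' deposited table. Bub1b, the BUBR1 checkpoint protein, went from 41.5 to 12.5 FPKM without doxycycline and from 42.2 to 7.75 FPKM with it, which the authors' deposited table gives as 3.32-fold and 5.45-fold. Ttk, the MPS1 kinase at the top of the checkpoint, was 3.22-fold and 4.03-fold lower in the authors' deposited table. Espl1, the protease separase, had 13.7 FPKM in untreated construct cells and 3.38 FPKM with interferon-gamma. Pttg1, its inhibitor securin, had 33.5 and 13.8 FPKM in these groups and no row with doxycycline. Bub1, a checkpoint kinase, had no row without doxycycline and went from 42.0 to 20.7 FPKM with it, just past the 2-fold limit.

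Centromere and kinetochore genes were lower for 8 of 9 members without doxycycline and 9 of 9 with it, and their medians were -1.55 and -1.65. The NDC80 complex, which binds microtubules, was represented by all 4 subunits. Ndc80 had rebuilt levels of 21.2, 21.2, 20.6 and 18.6 FPKM in the unstimulated groups and 8.44 and 8.20 FPKM in the stimulated ones. Nuf2 had 31.6, 33.5, 30.9 and 30.7 FPKM, and then 6.91 and 9.48 FPKM. Spc24 went from 20.2 to 6.45 FPKM and Spc25 from 23.8 to 7.74 FPKM without doxycycline. In that comparison the authors' deposited table gives the leading entries falls of 2.44-fold for Ndc80, 3.14-fold for Spc24, 3.08-fold for Spc25 and 4.48-fold for Nuf2. It gives the minor Nuf2 entry a fall of 2.58-fold. The spread between the partners of this complex thus depends on the entry, and its error is unknown. Cenpf, a large protein of the outer kinetochore, had 8.52, 9.95, 9.93 and 9.33 FPKM and then 2.195 and 1.65 FPKM, falls of 4.52-fold and 5.64-fold by the authors' deposited table. Cenpe, a kinetochore motor, was among the least changed, at 2.24-fold and 2.00-fold by the authors' deposited table. Cenpa, the histone variant that marks the centromere, had 46.6, 41.3, 47.1 and 49.2 FPKM in the unstimulated groups. It had 23.3 and 16.8 FPKM in the stimulated ones. The fall of this leading entry was 2.02-fold without doxycycline and 2.92-fold with it in the authors' deposited table. A minor Cenpa entry with up to 38.4 FPKM had falls of 2.69-fold and 2.41-fold there, so this order depends on the entry. Knstrn, a spindle and kinetochore adaptor, was 2.78-fold and 3.35-fold lower in the authors' deposited table. Cenpk, of the inner kinetochore, had its single row with doxycycline, from 5.32 to 1.70 FPKM.

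Kinesins and spindle proteins form the largest role, and 13 of 14 were lower in each comparison, with medians of -1.49 and -1.77. Ckap2, a microtubule-stabilising protein, had the largest fall of any leading entry without doxycycline. Its rebuilt levels were 14.3, 14.4, 15.9 and 15.6 FPKM in the unstimulated groups and 2.78 and 2.61 FPKM in the stimulated ones, 5.71-fold and 5.97-fold lower in the authors' deposited table. Prc1, which bundles the central spindle, went from 16.5 to 3.67 FPKM and from 15.7 to 3.70 FPKM. Kif11, the motor that separates spindle poles, had 29.0, 29.6, 30.04 and 29.5 FPKM and then 8.28 and 7.35 FPKM. Kif15, which can share that work, had 12.6, 13.9, 14.3 and 13.9 FPKM and then 3.33 and 3.28 FPKM. Both pole-separating motors were lower in each stimulated group than in any unstimulated one, which the 2-fold limit largely fixes. Kif20a and Kif23, motors of the central spindle, lay at the other end. Kif20a was lower 2.5-fold and 2.11-fold by the authors' deposited table. Kif23 had rebuilt levels of 22.1 and 11.2 FPKM without doxycycline, a log2 ratio of -0.985 just short of the 2-fold limit and with no row, and 22.9 and 9.94 FPKM with it, which has one. Kif2c, Kif4, Kif18b, Kif20b, Kif22, Nusap1 and Hmmr, which are kinesins or spindle-associated proteins, had deposited folds between those of Kif20a and Prc1 in the comparison without doxycycline in the authors' deposited table. Tpx2, which activates Aurora A on the spindle, went from 5.82 to 2.07 FPKM without doxycycline and had no row with it.

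All 5 genes of the passenger complex and cytokinesis were lower in both comparisons, with medians of -1.63 and -1.73. Birc5, survivin, had rebuilt levels of 96.8, 99.2, 90.1 and 83.7 FPKM in the unstimulated groups and 27.5 and 25.8 FPKM in the stimulated ones. Cdca8, borealin of the same complex, had 53.2, 51.3, 48.6 and 46.9 FPKM and then 22.1 and 20.9 FPKM. Survivin fell by more than borealin, 3.27-fold against 2.2-fold without doxycycline in the authors' deposited table. Anln, the contractile ring scaffold anillin, went from 37.2 to 11.3 FPKM and from 34.8 to 9.55 FPKM. Ect2, the exchange factor that activates RhoA at the cell equator, went from 17.8 to 5.75 FPKM and from 17.4 to 4.82 FPKM. Racgap1, its binding partner in centralspindlin, went from 44.8 to 16.6 FPKM and from 41.7 to 12.6 FPKM.

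Genes of chromosome structure were lower for 7 of 8 members in each comparison, with medians of -1.52 and -1.61. Top2a, the topoisomerase that untangles sister chromatids, had rebuilt levels of 77.5, 84.0, 80.8 and 79.8 FPKM in the unstimulated groups and 27.8 and 26.1 FPKM in the stimulated ones. Mki67, the proliferation marker Ki-67 that coats mitotic chromosomes, had 42.6, 46.0, 40.1 and 38.8 FPKM and then 11.2 and 10.0 FPKM. Neither gene has overlapping levels between unstimulated and stimulated groups, which the 2-fold limit largely fixes. The condensin subunits Ncapd2, Ncapg and Ncaph were 3.25-fold, 2.61-fold and 2.86-fold lower without doxycycline in the authors' deposited table. Smc2, the condensin ATPase, had 27.6 and 10.3 FPKM there, while its partner Smc4 had no row without doxycycline and went from 30.6 to 11.1 FPKM with it. Cdca5, sororin, which protects cohesin, went from 16.4 to 7.76 FPKM without doxycycline and had no row with it.

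Several genes had more than 1 entry, 17 in all, and all 77 entries were lower in every stimulated group than in any unstimulated group for which a level could be rebuilt. A level exists only where a row passed the 2-fold limit, which largely fixes this order. The fall differed between entries of a gene. The entries of Knstrn were 2.78-fold and 4.00-fold lower without doxycycline and 3.35-fold and 6.68-fold lower with it in the authors' deposited table. Both Ect2 entries are protein-coding, and the minor one was 5.35-fold lower against 3.09-fold for the leading one in the authors' deposited table. For Nuf2 the order was the other way, 2.58-fold for the minor entry and 4.48-fold for the leading one in the authors' deposited table. FPKM of overlapping transcripts are estimates that share fragments, and without values per sample the error of these differences is unknown.

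CITED1 induction in cells that were given interferon-gamma was followed by no called change in these genes. The authors' deposited table calls 0 of the 55 lower and 0 higher, against 6.34% and 6.84% of all listed genes; the columns used here hold no unadjusted p-value, so no count at such a threshold can be given. Rebuilt levels in both groups were at hand for 49 genes, with a median log2 ratio of -0.12 (range -0.69 to 0.46), and 38 lay below 0 and 10 above. Of these 49 genes 47 (95.9%) lay within 1.5-fold, against 60.8% of all listed genes with both levels. The shares are not selected alike, since all listed genes include those listed because they passed 2-fold in this very pair. The mitosis genes have levels only through pairs with an unstimulated group. Bub1, Cenpk, Pttg1, Smc4 and Tpx2 do not have levels in both groups and are left out, so a difference in them could not be seen. By leading entries 2 genes were past 1.5-fold. Bub1b had 12.5 FPKM with interferon-gamma and 7.75 FPKM with both treatments, and Aurkb had 17.7 and 11.5 FPKM. At the other end Nuf2 had 6.91 and 9.48 FPKM, Mad2l1 8.02 and 10.4 FPKM, and Kif20a 9.53 and 12.0 FPKM. These are leading entries, and the minor Nuf2 entry went the other way, from 2.93 to 2.61 FPKM. Over all 64 entries with both levels the log2 ratios spread wider, from -0.727 to 0.769, with 45 below 0 and 18 above. The ends were a minor Knstrn entry (-0.727) and a minor Cdk1 entry (0.769), both past 1.5-fold. By their leading entries all 5 genes of the passenger complex and cytokinesis lay below 0, with a median of -0.24. The minor entries of Ect2 and Birc5 lay above 0, at 0.35 and 0.17. Of 3274 listed genes with both levels, 1586 lay below 0. Whether any of these ratios exceeds the spread between samples cannot be read from the table.

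**Figure D3:**
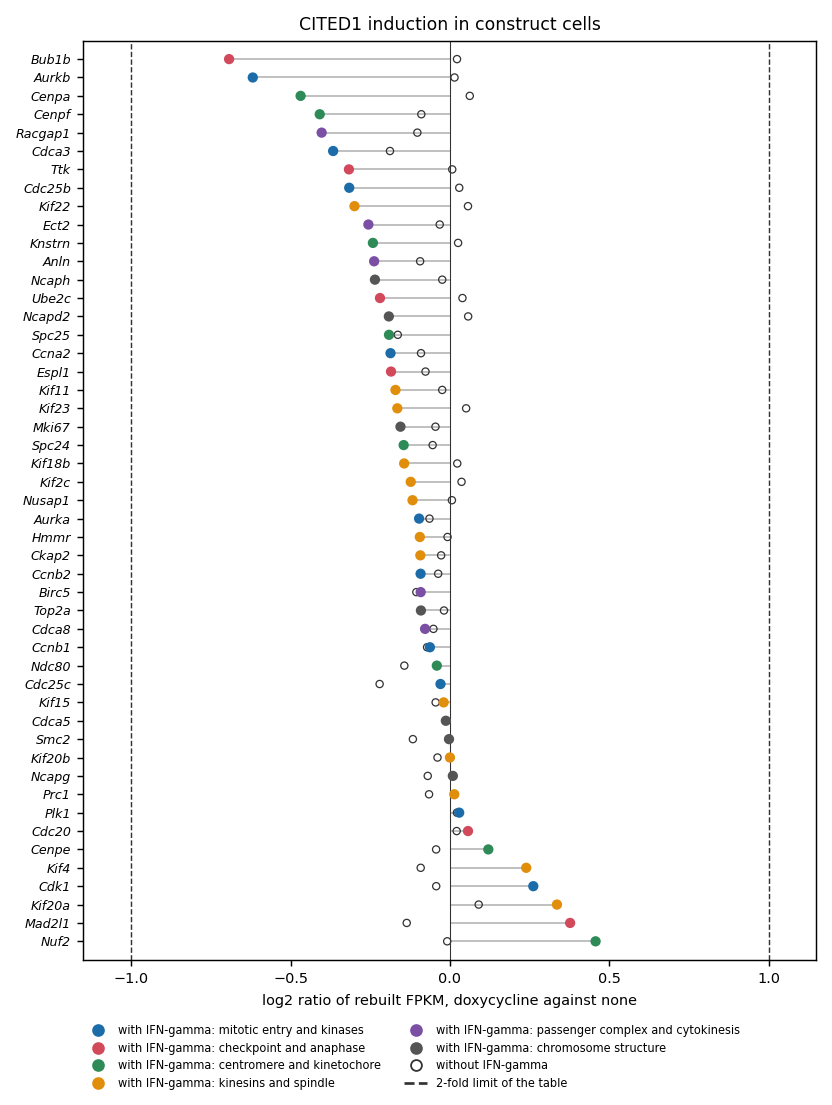
Log2 ratio of rebuilt FPKM between construct cells given doxycycline and not, for 49 genes in interferon-gamma (filled, coloured by role) and, for the same genes where both levels exist, without interferon-gamma (open circles); dashed lines mark the 2-fold limit of the authors' deposited table. All points are leading entries and lie between the dashed lines. The filled ones run from -0.69 (Bub1b) to 0.46 (Nuf2) and the open ones from -0.22 (Cdc25c) to 0.09 (Kif20a).

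The falls with interferon-gamma in cells without and with doxycycline come from comparisons that share no group, and the genes ranked alike in both. Across the 48 genes with both log2 ratios, Spearman's rho was 0.785 and Pearson's r 0.778, a description over genes of 1 process, which are not independent and were all measured in the same libraries. Ckap2 stood at the far end in both, and Cenpe, Cdca8 and Kif23 at the near end. The ratio was lower with doxycycline for 31 of the 48 genes. Among leading entries Bub1b differed most toward a larger fall with doxycycline, with log2 ratios of -1.73 and -2.44, followed by Aurkb with -1.40 and -2.03. A minor Knstrn entry differed more, with -2.00 and -2.74, against -1.47 and -1.74 for the leading Knstrn entry. Mad2l1 differed the other way, with -2.02 and -1.51, as did Nuf2 with -2.16 and -1.70. For both genes this depends on the entry. The minor Nuf2 entry had -1.37 and -1.56, and a minor Mad2l1 entry had -2.206 and -2.212. These differences between comparisons were not tested, since that needs values per sample.

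**Figure D4:**
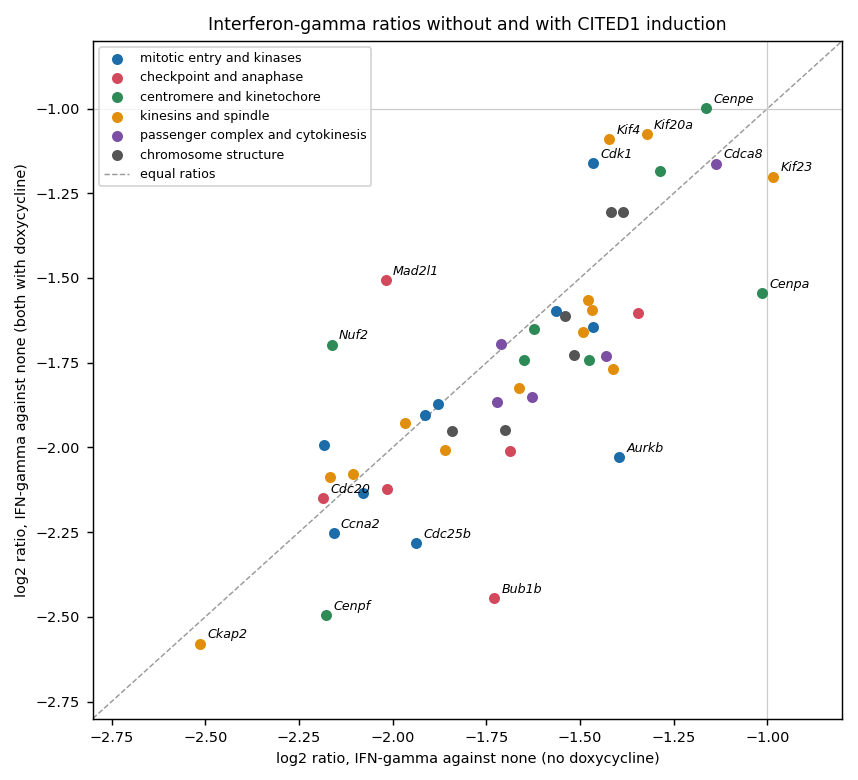
Log2 ratio of rebuilt FPKM with interferon-gamma against without it in construct cells, without doxycycline (x axis) and with doxycycline in both groups (y axis), for 48 genes coloured by role; the dashed line marks equal ratios and the grey lines a 2-fold fall. The points follow the dashed line, with Bub1b and Aurkb below it and Mad2l1 and Nuf2 above it.

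In unstimulated cells neither CITED1 induction nor the construct nor doxycycline was followed by a called change in any of the 55 genes. With doxycycline in construct cells, 0.202% of all listed genes were called lower and 0.202% higher, and all 51 of these genes with both levels lay within 1.5-fold, as did 95.6% of all listed genes. For construct against parental cells the called shares of all listed genes were 2.77% lower and 1.72% higher without doxycycline, and 3.17% and 2.44% with it. All 52 and 51 genes with both levels lay within 1.5-fold in these comparisons, against 86.2% and 84.1% of all listed genes. Here too all listed genes include those listed because they passed 2-fold in the pair itself, so these shares are not selected alike. With doxycycline in parental cells 0.788% of listed genes were called lower and 0.11% higher. The level of Cited1 in the construct cells rose from 0.703 to 168 FPKM over the same pair of groups in which Ccna2 had 92.8 and 87.1 FPKM and Cdc20 65.4 and 66.4 FPKM.

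Other genes of mitosis, listed from their known roles and not among the 55, moved much the same way. This list too was made with earlier results of these data known. Of 101 such genes 69 were listed, and the authors' deposited table calls 60 lower and 1 higher without doxycycline and 59 lower and 2 higher with it. Their median log2 ratios were -1.48 and -1.61. Foxm1, the transcription factor of late cell cycle genes, had rebuilt levels of 28.3, 30.4, 30.9 and 29.8 FPKM in the unstimulated groups and 10.9 and 11.7 FPKM in the stimulated ones. Mybl2, the B-MYB partner of the MuvB complex, had 20.7, 20.7, 20.6 and 20.0 FPKM and then 7.17 and 6.74 FPKM. Both regulators were lower in each stimulated group than in any unstimulated one, which the 2-fold limit largely fixes. Zwint, a kinetochore protein that links to the checkpoint, went against the rest, from 24.8 to 60.6 FPKM without doxycycline and from 25.8 to 100 FPKM with it, rises of 2.44-fold and 3.89-fold by the authors' deposited table. Wapl, which releases cohesin, rose 2.38-fold with doxycycline in the authors' deposited table and had no row without it. Where CITED1 was induced in interferon-gamma, 2 of the 69 genes were called lower (2.9%) and 1 higher (1.45%). These shares were below the 6.34% and 6.84% of all listed genes. The lower ones were Cenpl of the inner kinetochore, from 4.87 to 1.10 FPKM, and Psrc1, a spindle protein, from 6.74 to 3.04 FPKM. The higher one was Arhgap11a, through a minor entry that had 1.79 and 4.18 FPKM.

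S-phase genes, which act in DNA replication before mitosis, were lower for 28 and 27 of 34 listed genes and higher for none in the 2 interferon-gamma comparisons of the authors' deposited table. Their median log2 ratios were -1.47 and -1.37, somewhat nearer to 0 than those of the mitosis genes; the difference was not tested. Of 17 listed regulators of G1 and of cell cycle exit, the authors' deposited table calls 5 lower and 4 higher without doxycycline. The higher ones were Cdkn1a, E2f1, E2f3 and Mdm2. Those counts are 29.4% lower and 23.5% higher, near the 24.5% and 25.7% of all listed genes. With doxycycline the authors' deposited table calls 5 lower (29.4%) and 1 higher (5.88%, Ccnd3), against 34.0% and 33.7% of all listed genes. Scaling between libraries was not tested. Centred on the median log2 ratio of listed entries of at least 1 FPKM, 0.65 without doxycycline and 1.02 with it, the mitosis genes had medians of -2.27 and -2.75. This centre depends on the entries pooled, since the leading entries of all listed genes had medians of -0.0049 and -0.33. Centring on those was not run. Taking away a positive value can only move a lower gene further down, and the table lists entries because they changed, so the centring says nothing of how stable the calls are.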

How the data were processed

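Poly(A)-selected RNA of 18 samples in 6 groups of 3 was made into directional libraries, per the labels' protocols. The submitters' processing notes name Cuffdiff 2.2.1, edgeR, featureCounts, STAR 2.5.3a and FastQC 0.11.5 without their roles; for genome build and annotation nothing is given in the sources used here. Per the file headers, the deposited table holds for each pair of groups a fold change (a linear ratio), a direction, a total FPKM and a q-value, a p-value adjusted by the authors. The authors' scaling of FPKM is not given in the sources used here.

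Of 112230 rows, 34824 compare 2 of the 6 groups and were used; 77406 name another group. Levels were rebuilt from each row: dividing the total by (1 + fold) gives the lower group, multiplying that by the fold gives the higher group, and a group's level is the median over its rows. A gene was counted in a direction when its called entries all had that direction. Entries named by a symbol and an assembler locus tag were counted for the symbol, a choice made after the data were examined: it concerns 4 entries, the main ones of Aurkb, Birc5, Espl1 and Cdc25c, and by the symbol alone 53 genes were listed. Entries with no symbol (255) or more than 1 (36) were left out. All 55 genes are accounted for, and other genes are named only from lists of mitosis, S-phase, G1 and marker genes. The genes and lists were chosen with earlier results of these data known. The design had foreseen that the table might hold counts per sample; it does not, so no test was run and the calls are those of the authors (q up to 0.05). Level rebuilding and counting were tested on simulated data.

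Promoter windows came from RefSeq (GRCm38.p6). Bases after the start were found on the gene strand of GENCODE M21 transcripts for 48 of 52 windows and on the other strand for 0. Python 3.11.15, pandas 2.3.3, numpy 2.4.6, scipy 1.17.1 and matplotlib 3.10.9 were used. The alternatives tried were a stricter q (up to 0.01), entries reaching 1 FPKM, the leading entry alone, 1 FPKM added to both levels before the 2-fold limit, and log2 ratios centred on the median of listed entries. Another 2, protein-coding entries alone and rows named by the symbol alone, were chosen after seeing the data.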

Additional observations from a re-analysis of the deposited data

How the results depend on the processing

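The counts of called genes stayed within 1.5 times of those reported under each of the 7 alternatives run. Without doxycycline the 50 genes lower with interferon-gamma became 49 with the pseudocount and 47 with rows named by the symbol alone, and were 50 under the other 5. With doxycycline the 51 became 48 with the pseudocount, at a q of 0.01 or less and with rows named by the symbol alone, and were 51 under the other 4. The pseudocount took Cdca5 and the leading entry of Cenpa below 2-fold without doxycycline, while Cenpa stayed counted through another entry. It took Bub1, Cenpe and Kif4 below 2-fold with doxycycline. The stricter q took Cenpk, Kif4 and Spc25, with doxycycline. Centring used the median of listed entries of at least 1 FPKM. It takes away a positive value in both interferon-gamma comparisons and so could not raise a lower gene. The medians over the leading entries of all listed genes were not positive, and centring on them was not run. The direction of a named gene did not reverse in any alternative run, but none of them could reverse it. Selecting among called rows keeps their direction, and the same pseudocount added to both levels keeps the sign of a ratio. The counts of 0 in the other 5 comparisons stayed at 0. The mitosis genes have no row there and every alternative starts from called rows, so these counts could not change. Neither outcome says how stable the calls are. No paired analysis was possible because the table holds comparisons of groups and no values per sample; leaving out replicates could not be run for the same reason. Depth is unknown, absolute levels rest on reading the total as a sum of both groups, and ratios do not.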
